A study of Mus musculus with 2 samples.

Results

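The interferon-inducible GTPases examined here are 10 genes of the mouse, namely the guanylate-binding proteins Gbp2, Gbp3, Gbp5, Gbp6 and Gbp7 and the immunity-related GTPases Irgm1, Irgm2, Igtp, Iigp1 and Tgtp1. They were chosen by name, and every non-control probe whose RefSeq accession belongs to one of them was read. This gave 13 probes of the 39429 on the array, or 10 genes of 32448 (20656 RefSeq symbols, the rest targets counted under their own identifier). Their RNA was measured in bone marrow-derived macrophages (BMDMs), macrophages grown from mouse bone marrow with M-CSF, that were either left untreated or treated for 18 h with IL-4, a cytokine of type 2 immunity that drives macrophages toward the M2-like state. Both cultures came, per the study's methods, from young adult male Crif1 f/f mice, which carry floxed Crif1 alleles, and no Cre is stated for them; neither the IL-4 dose for these arrays nor the number of mice pooled is given in the sources used here. Each condition was measured on 1 single-colour Agilent array, both on the same slide, so that no difference has a replicate check and no p-value is given.

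Guanylate-binding proteins (GBPs) and immunity-related GTPases (IRGs) are large GTPases that cells make in bulk when interferon-γ reaches them. Interferon-γ signals through its receptor and the kinases JAK1 and JAK2, acts on GAS elements (interferon-γ-activated sites) of its target genes, and raises the transcription factor IRF1, an activator of the GTPase genes. The proteins coat the vacuoles of intracellular pathogens such as Toxoplasma and Chlamydia, disrupt them and expose their contents to cytosolic sensors. Irgm1, Irgm2 and Igtp are regulatory IRGs that sit on the cell's own membranes and hold the effector IRGs inactive there, whereas Iigp1 and Tgtp1 are effectors that load onto the vacuole. In macrophages these genes are textbook markers of the interferon-γ (M1-like) state, the counterpart of the IL-4 state studied here.

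The promoters were read first, for the letters of known interferon-response elements. RefSeq windows of 300 bases (build GRCm38.p6, from 250 bases before to 50 bases after the annotated start site) were at hand for 8 of the 10 genes, all but Gbp6 and Iigp1. They were searched on both strands for GAAANNGAAA (TTTCNNTTTC on the opposite strand), the core of the element that IRF1 and its relatives bind. The windows below run 5′ to 3′ on the gene's strand with the repeat in capitals, and those of the 4 GBP genes are shown first because all carry it in the antisense orientation within the same gene cluster.
Gbp2: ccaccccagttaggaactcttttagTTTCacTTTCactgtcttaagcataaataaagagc
Gbp3: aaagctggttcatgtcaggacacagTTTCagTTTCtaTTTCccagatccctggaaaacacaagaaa
Gbp5: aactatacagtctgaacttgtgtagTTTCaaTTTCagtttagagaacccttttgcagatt
Gbp7: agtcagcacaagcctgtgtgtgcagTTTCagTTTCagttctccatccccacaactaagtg
These windows lie at chr3:142620579-142620638, plus strand (Gbp2), chr3:142559974-142560039, plus strand (Gbp3), chr3:142496744-142496803, plus strand (Gbp5) and chr3:142530258-142530317, plus strand (Gbp7). The match began 59 bases before the start site in Gbp2, 53 in Gbp7 and 45 in Gbp3, where a further TTTC made a second overlapping match at 39, and 165 in Gbp5. Gbp3 has a second annotated start site, whose window held no such repeat.

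The 4 IRG members with a window, Irgm1, Irgm2, Igtp and Tgtp1, carried the repeat as GAAA on the sense strand. They are set beside Tgtp2, a near-identical copy that lies close to Tgtp1, to show how much of the surrounding sequence these genes share.
Irgm1: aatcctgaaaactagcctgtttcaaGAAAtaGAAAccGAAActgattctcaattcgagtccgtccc
Irgm2: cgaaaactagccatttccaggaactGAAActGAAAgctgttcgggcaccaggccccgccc
Igtp: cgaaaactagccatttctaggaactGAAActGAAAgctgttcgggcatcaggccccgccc
Tgtp1: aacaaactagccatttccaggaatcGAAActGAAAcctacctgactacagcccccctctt
Tgtp2: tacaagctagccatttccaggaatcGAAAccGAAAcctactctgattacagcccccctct
The positions are chr11:48871410-48871475, minus strand for Irgm1, chr11:58214888-58214947, plus strand for Irgm2, chr11:58199497-58199556, plus strand for Igtp, chr11:48992289-48992348, minus strand for Tgtp1 and chr11:49064248-49064307, minus strand for Tgtp2. Igtp and Irgm2 were identical at 58 of 60 bases of these windows, Tgtp1 and Tgtp2 at 44 of 60, and Igtp and Tgtp1 at 38 of 60, counted without gaps. The repeat began 64 bases before the start site in Irgm2, 34 in Igtp, 77 in Tgtp1 and 30 in Irgm1, where it again overlapped a second match at 24.

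All 8 genes with a promoter at hand therefore held the repeat at 1 or more start sites, against 3.99% of 27025 genes with a promoter in the table. The GAS-type sequence TTCNNNGAA was found in 5 of the 8 (Gbp5, Gbp7, Irgm2, Igtp and Tgtp1), against 9.55% of genes. In Irgm2, Igtp and Tgtp1 it began 11 bases before the GAAA repeat. TTCNNNNGAA, the wider spacing that STAT6, the factor IL-4 activates, prefers, was found in 1 of the 8 (the second start site of Gbp3), against 8.01% of genes. Of 8 other GTPase genes of these families with a window, 4 held the GAAA repeat (Gbp2b, Tgtp2, Gm12250 and 9930111J21Rik1), 2 the GAS-type sequence (Tgtp2 and Gm12250) and 0 the STAT6-type one. Irgq, 9930111J21Rik2, Gm5431 and Ifi47 held none of the 3, and Gm12250 carried its repeats in the antisense orientation. These matches describe letters in 1 window per start site, and binding was not measured.

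**Figure D1:**
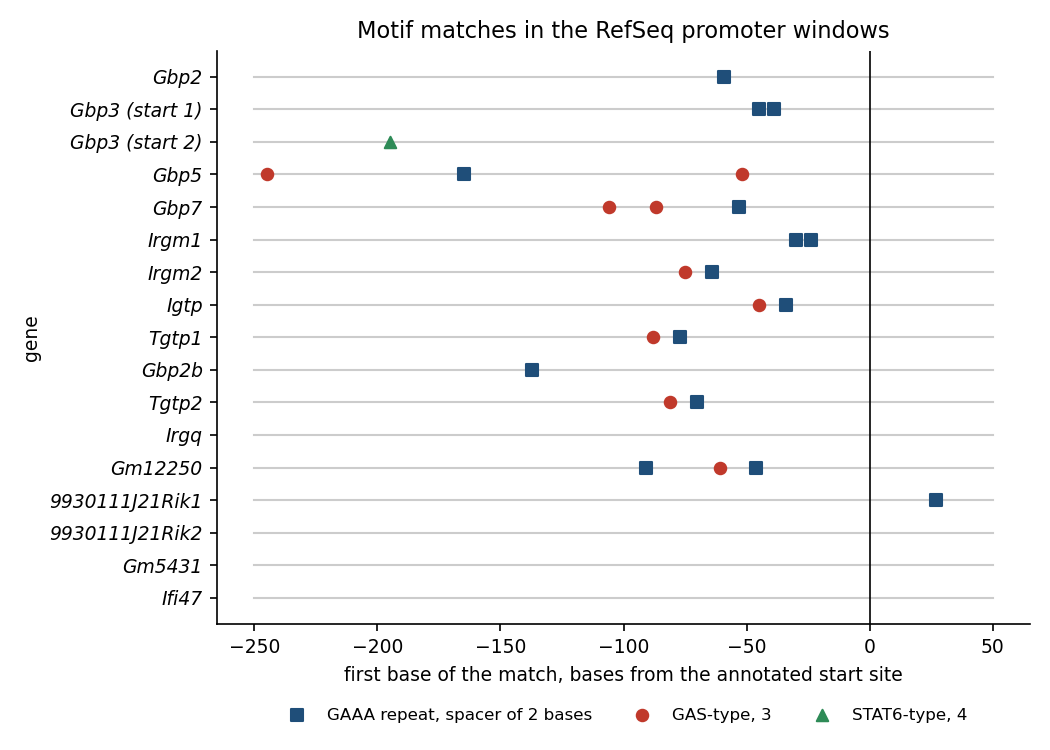
Each line is the 300-base RefSeq promoter window of 1 start site, and each mark is the first base of a motif match in bases from that start site (squares, GAAA repeat; circles, GAS-type; triangles, STAT6-type; spacers of 2, 3 and 4 bases). The 8 members with a window come first and each has a square at 1 or more start sites, and the only triangle is at the second start site of Gbp3.

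Of the 10 GTPase genes, 9 were well above background on both arrays and Tgtp1 on neither. Gbp5 was the only one at least 2-fold higher after IL-4, none was at least 2-fold lower, and the other 8 stayed within 2-fold. Of all 19703 genes with a value, 2.86% passed 2-fold upward and 4.48% downward. Of the 17242 above background on both arrays, as these 9 are, 2.11% passed it upward and 1.57% downward. A count of 1 in 9 is too small to be read against those shares. The median log2 difference of the 9 genes (IL-4 minus untreated) was -0.0055, and that of all 17242 genes above background on both arrays was -0.015. Differences are on the log2 scale, with each array scaled to its 75th percentile, and the error given with each is the SD between spots of repeated probes of like signal on these 2 arrays. This error leaves out any difference between cultures. It is also narrower, for bright genes and for Gbp3, than the error that the scanner software gave each spot. That error was 10.02% of the untreated and 10.03% of the IL-4 intensity for Gbp2. It was 10.01% and 10.02% for the brighter probe of Irgm1, and 10.02% and 10.01% for Irgm2. It was 10.2% of either intensity for Gbp3, and larger for the dimmer Gbp5, Gbp7 and Iigp1. The ± alone therefore does not show how far the difference of any of the genes lies from 0.

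**Figure D2:**
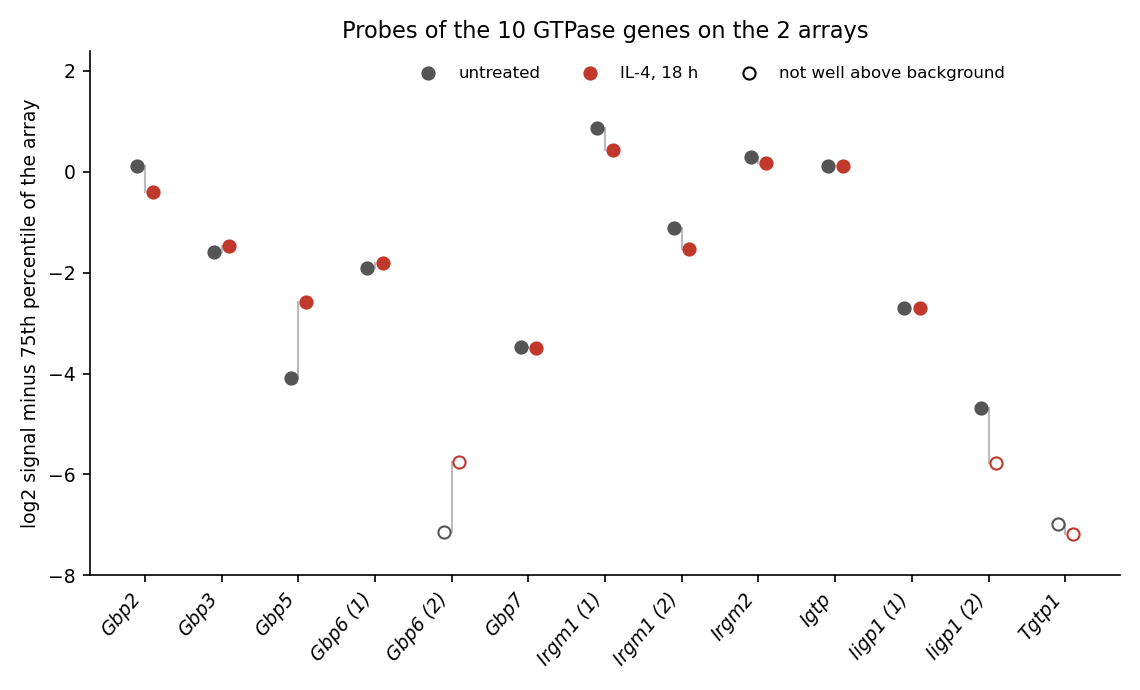
Points show the log2 signal of each of the 13 probes minus the 75th percentile of its array, for the untreated (grey) and the IL-4 array (red), with open points where the probe was not well above background and probes of 1 gene numbered by brightness. The 2 points of a probe lie close together except for Gbp5, which was higher with IL-4 (-4.08 and -2.57), and for dim probes with open points; levels of different probes are not comparable.

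Gbp5, a GBP that promotes assembly of the NLRP3 inflammasome, had an intensity of 54.0 in untreated BMDMs and 165 with IL-4. It was thus dim on both and brighter with IL-4, by 1.51 ± 0.17 on the log2 scale (2.85-fold). The scanner software put the error of the spot at 18.0% of the untreated and 11.1% of the IL-4 intensity. Among 1910 genes with a mean signal within 0.5 log2 units of that of Gbp5, the median difference was -0.13 and 3.46% were at least 2-fold higher. The 6 other scalings gave 1.45 to 1.84, but a background correction by normexp gave 0.64, under 2-fold. Normexp was run on median pixel intensity and adds an offset of 50 to every intensity, which narrows differences of dim spots. How far either accounts for the lower value was not tested. Spike-in controls with untreated log2 intensities of 5.23 and 6.75, on either side of Gbp5, differed by -2.53 (most of its spots not above background with IL-4) and -0.70, in the direction opposite to Gbp5, and those above 9 by -0.41 to -0.076.

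The whole promoter window of Gbp5 is given because this gene was the only member at least 2-fold higher. Whether its promoter bears on that difference was not tested.
Gbp5: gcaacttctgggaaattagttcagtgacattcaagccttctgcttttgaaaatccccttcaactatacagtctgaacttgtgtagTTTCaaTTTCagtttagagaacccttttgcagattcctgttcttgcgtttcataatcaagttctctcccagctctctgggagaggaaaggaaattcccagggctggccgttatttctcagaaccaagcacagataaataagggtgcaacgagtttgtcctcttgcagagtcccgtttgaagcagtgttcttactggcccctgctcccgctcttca
It spans chr3:142496684-142496983, plus strand, with the GAAA repeat in capitals. The repeat lies 165 bases before the start site, against 24 to 77 in the other 7 genes with a window, and GAS-type matches begin 245 and 52 bases before that site. The window held no match to the wider STAT6-type spacing. The letters that the study prints for a putative STAT6 site in the human GDF15 promoter have the GAS-type spacing instead. The positions it gives for that site span more bases than are printed, so its spacing is not certain.

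The other GBP genes did not follow Gbp5. Gbp2, which coats Toxoplasma vacuoles and bacteria, had an intensity of 987 untreated and 748 with IL-4, a difference of -0.50 ± 0.061 (1.41-fold lower). It was lower with IL-4 under the 6 other scalings, by values from -0.55 to -0.17, and with normexp (-0.43). Gbp3 read 305 untreated and 352 with IL-4, a difference of 0.11 ± 0.078. Gbp7, which has been tied to assembly of the phagocyte oxidase, read 81.8 and 87.3, a difference of -0.0055 ± 0.19 after scaling. The values of Gbp7 were thus well within the error between spots, and that of Gbp3 only slightly above it. The scanner error, 10.2% of either intensity for Gbp3, is not part of that comparison. Gbp6 has 2 probes, of which the brighter read 244 and 281 (0.10 ± 0.091) and the other was above background on neither array.

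Gbp5, Gbp7, Gbp3, Gbp2b and Gbp2 follow each other on chromosome 3 with no other protein-coding gene between them. The 2 ends of this cluster differed most, since the difference of Gbp5 exceeded that of Gbp2 by 2.01 on the log2 scale and those of Gbp3 and Gbp7 by 1.40 and 1.51. A distance between 2 genes' differences does not depend on how the arrays are scaled by a constant, but with normexp these 3 came to 1.07, 0.60 and 0.77. Gbp2b was above background on neither array. On chromosome 5 the run Gbp8, Gbp9, Gbp4, Gbp10 and Gbp6 held differences of 0.37 ± 0.12 for Gbp9, 0.12 ± 0.29 for Gbp10 and 0.10 for Gbp6, and Gbp8 and Gbp4 were not well above background. With normexp Gbp9 came to 0.077 and Gbp10 turned to -0.17.

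Among the regulatory IRGs, Irgm1 was lower with IL-4 and its 2 relatives were near 0. Irgm1, which protects mice against mycobacteria, read 1662 untreated and 1330.3 with IL-4 on its brighter probe, a difference of -0.42 ± 0.058 (1.34-fold lower). Its second probe read 422 and 341, a difference of -0.41 ± 0.072, so that the 2 probes gave like values. The 6 other scalings gave values below 0 for Irgm1, from -0.48 to -0.095, and normexp gave -0.41. Irgm2 read 1121 and 1099.7, a difference of -0.13 ± 0.058, and it lay above 0 under 2 of the 6 other scalings.

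Igtp (Irgm3), needed for resistance to Toxoplasma, was printed in 10 spots per array and is therefore the member whose spot error is known directly. The spots ranged from 945 to 1065 untreated and from 978 to 1115.5 with IL-4, so that they overlapped. After scaling, the difference was -0.014 with an SD of 0.070 over the 10 spots, of which 3 lay above 0 and 7 below. Its sign turned with the scaling, with 3 of the 6 others above 0. The difference of Igtp exceeded that of Irgm1 by 0.41 and that of Irgm2 by 0.11.

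Neither effector IRG gave a difference of 2-fold. Iigp1 (Irga6) read 140.3 untreated and 149.9 with IL-4 on its brighter probe, which after scaling was a difference of -0.0037 ± 0.12. Its dimmer probe was well above background on the untreated array alone, with intensities of 35.8 and 18.0, and was at least 1.37-fold lower with IL-4, a bound of -0.46 on the log2 scale with a spot SD of 0.39. Tgtp1 (Irgb6) read 7.25 and 6.71 and was above background on neither array, so it has no fold. Its near-identical copy Tgtp2 read 601 and 461 on its brighter probe, a difference of -0.48 ± 0.064. The second probe of Tgtp2 read 6.15 and 6.53 and was above background on neither array. The sequences of the probes are not used here, so how far a probe of one copy also binds RNA of the other was not tested.

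The measured neighbours of Irgm1 up to Tgtp2 lay below 0, as Irgm1 did, but none by 2-fold. In gene order on chromosome 11, the measured IRG genes after Irgm1 were Gm5431 (-0.46 ± 0.10), 9930111J21Rik1 (-0.41 ± 0.061), 9930111J21Rik2 (-0.34 ± 0.16) and Tgtp2 (-0.48), followed by Ifi47 (Irgd), which differed by 0.31 ± 0.058. The 5 measured genes from Irgm1 to Tgtp2 were thus lower with IL-4, and the next gene, Ifi47, was higher. Differences below 0 were common, since the median of all genes above background on both arrays was -0.015. The signs of the genes from Irgm1 to Ifi47 held under each of the 6 other scalings. However, 9930111J21Rik1 and 9930111J21Rik2 came as near 0 as -0.082 and -0.0097, the second well within its error. Tgtp1, which has no fold, lies within this run. In the second IRG cluster of this chromosome, Gm12250 (Irgb10), Igtp and Irgm2 are adjacent and differed by 0.44 ± 0.12, -0.014 and -0.13, the first falling to 0.13 with normexp. Between Gm5431 and 9930111J21Rik1 lie 2 other protein-coding genes, and how far probes of these related genes bind each other's RNA was not tested.

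Of 20 further GTPases, most were GBPs or IRGs, but Gvin1, Mx1 and Mx2 belong to neither family. Of the 20, 17 were matched to a probe and 11 were well above background on both arrays. At least 2-fold higher were 2 of them, and none was at least 2-fold lower. The shares of all genes above background on both arrays were 2.11% and 1.57%, and a count of 2 in 11 is too small to be read against them. Gvin1, a very large interferon-inducible GTPase, read 1261 untreated and 4066 with IL-4, a difference of 1.59 ± 0.053 (3.01-fold). Its second probe went from 1002.4 to 3709, which was 1.79 on the log2 scale (3.45-fold), so both probes rose. Gm4951, an IRG gene in the cluster of Iigp1, read 51.2 and 121, a difference of 1.14 ± 0.19 (2.21-fold), and like Gbp5 it was dim and fell under 2-fold with normexp, to 0.42. The median of the 11 was 0.12, and that of the 20 measured GTPases of both groups was -0.0046. Irgq differed by -0.21, Irgc1, Gm4841 and F830016B08Rik were above background on neither array, and Gbp11, Mx1 and Mx2 were not matched to a probe.

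**Figure D3:**
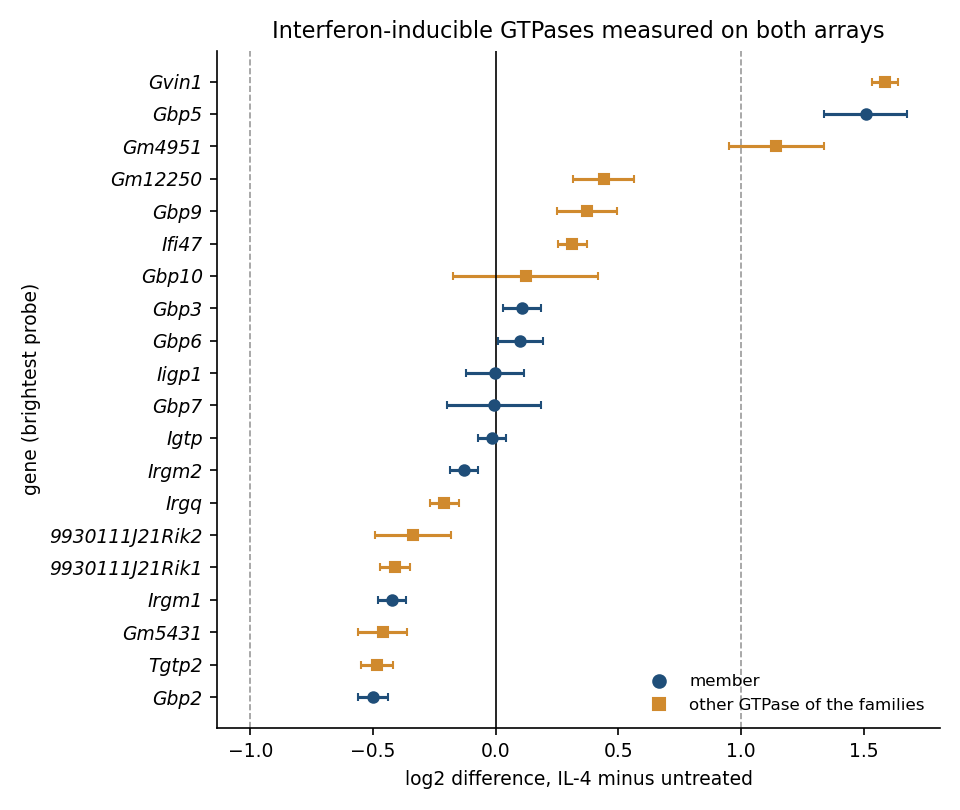
The log2 difference between the IL-4 and the untreated array is shown for the brightest probe of the 20 GTPase genes above background on both arrays, with bars of 1 SD between spots of like signal (circles, the 10-gene set; squares, other GTPases) and dashed lines at 2-fold. Gvin1, Gbp5 and Gm4951 lie beyond the upper line, and Gbp2 is lowest at -0.50.

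Among all genes with a value, the 8 measured members other than Gbp5 lay within the 2-fold lines. Over the whole array the differences scattered more widely among dim genes than among bright ones.

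**Figure D4:**
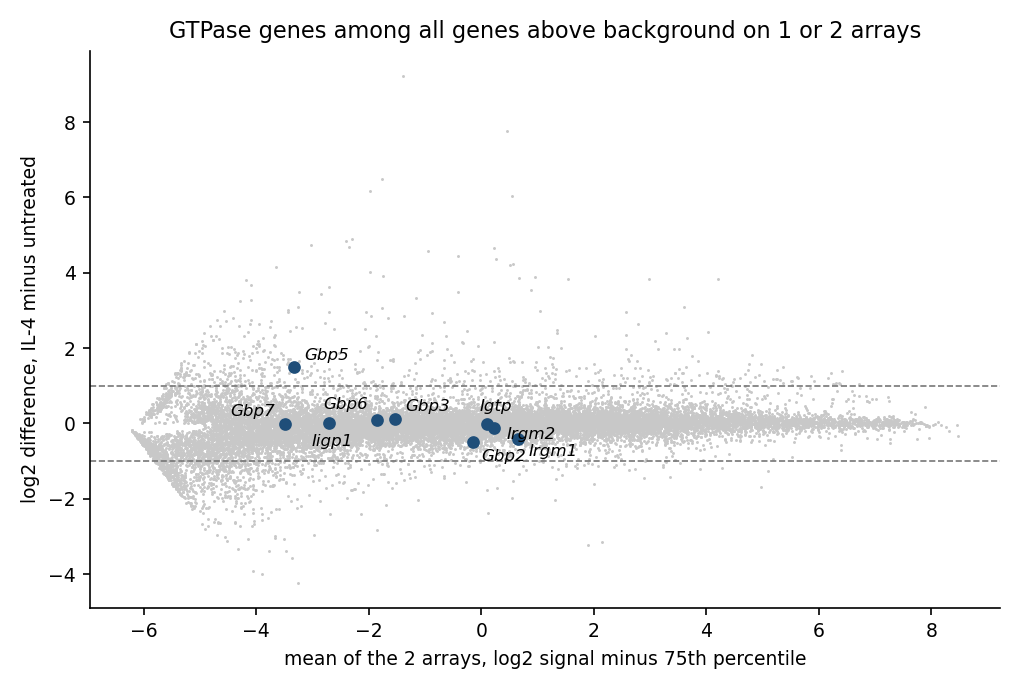
Each grey point is 1 of the 19703 genes with a value, placed by its mean log2 signal over the 2 arrays (minus the 75th percentile) and its log2 difference, IL-4 minus untreated, with dashed lines at 2-fold. The 9 measured members are in blue, and Gbp5 at 1.51 is the only one outside the lines.

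The sign of the small differences depended on how the arrays were scaled. Scaling by spike-in controls moved the median of all genes above background to 0.31 and median scaling moved it to 0.20, and the members moved with it. Gbp2 and Irgm1 stayed below 0, and Gbp3, Gbp5 and Gbp6 above 0, under the 6 other scalings and normexp. Gbp7, Irgm2, Igtp and Iigp1 changed sign.

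**Figure D5:**
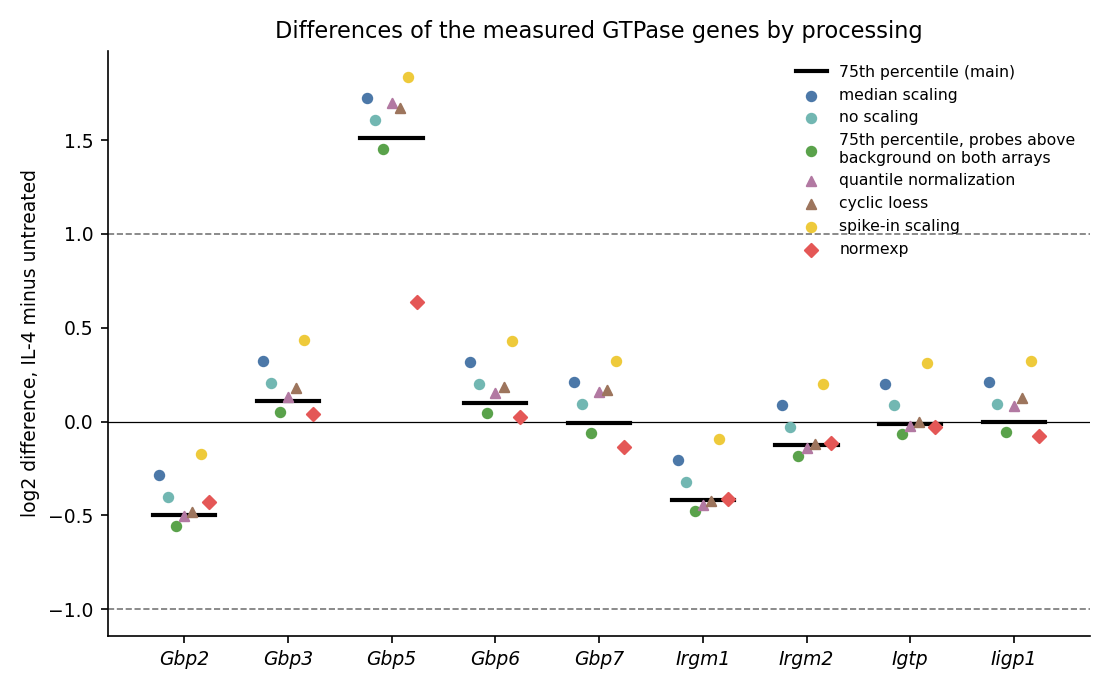
For each of the 9 measured genes the black line is the log2 difference (IL-4 minus untreated) with 75th percentile scaling, and the marks are the values under 7 other normalizations or background corrections; dashed lines mark 2-fold. Gbp5 is above 1 under all but normexp (0.64), and the other genes stay between the dashed lines.

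The interferon pathway upstream of the GTPases was read by role. Of all genes above background on both arrays, 2.11% were at least 2-fold higher and 1.57% lower. The counts in the short lists below are too small to be read against these shares. The ligand Ifng was above background on neither array, nor were Ifnb1, Ifna2 and Ifna4, and of the 6 ligand genes on the array Il18 (-0.89 ± 0.073) and Il27 (0.35 ± 0.10, or 0.16 with normexp) were measured. Neither of these 2 passed 2-fold, and the other 4 have no fold. Of 7 receptors and kinases, 1 was at least 2-fold higher and none lower. That gene was Jak2, a kinase of the interferon-γ receptor, which read 1518 untreated and 3694 with IL-4, a difference of 1.18 ± 0.053. The receptor chains Ifngr1 and Ifngr2 differed by 0.18 and 0.40, Jak1 by 0.071 and Tyk2 by -0.25. The chains of the type I receptor, Ifnar1 and Ifnar2, were at 0.0053 and -0.039.

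Of 9 transcription factors measured on both arrays, 1 was at least 2-fold higher and none lower. Irf7, which drives type I interferon genes, read 125 untreated and 338 with IL-4, a difference of 1.34 ± 0.10, and fell to 0.84 with normexp. Irf1, the main activator of GBP genes, was 0.61 ± 0.051 higher and Batf2 0.56 ± 0.074, while Irf8 (-0.12) and Irf9 (-0.077) lay near 0. Nlrc5, the activator of MHC class I genes, was at -0.60 and Ciita, that of MHC class II, at -0.25. Stat2 differed by 0.28 and Irf2, which competes with IRF1 and is counted among the inhibitors too, by 0.64.

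All 6 inhibitors of the pathway differed by more than 0 (Ptpn11, at 0.085, fell to -0.023 under 1 scaling), and 2 were at least 2-fold higher. The median of all genes above background on both arrays was -0.015, and 2.11% of them were at least 2-fold higher. Socs1, which blocks JAK kinases and is itself an IL-4 target, read 242 untreated and 5376 with IL-4, a difference of 4.37 ± 0.058. Usp18, a brake on type I interferon receptors, read 85.2 and 249.9, a difference of 1.45 ± 0.12, and 0.87 with normexp. Socs3 was at 0.46, and the 3 probes of Ptpn2 gave 0.49, 0.25 and, for the dimmest, 1.12 ± 0.21.

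Of 16 other interferon-γ targets, 14 were on the array and 2 were at least 2-fold higher. Of all genes with a value, bounds included, 2.86% passed 2-fold upward and 4.48% downward. Cd274, which encodes PD-L1, read 978 untreated and 5863 with IL-4, a difference of 2.48 ± 0.053, and Zbp1, a nucleic acid sensor, read 229 and 658, a difference of 1.42 ± 0.072 on its brighter probe. The second probe of Zbp1 read 97.8 and 119, a difference of 0.18 ± 0.16, so its probes disagreed and the 2-fold call rests on the brighter one. The chemokine gene Cxcl9 was the 1 that was at least 2-fold lower, with 57.1 and 29.3 and above background on the untreated array alone, which gives at least 2.09-fold lower (a bound of -1.06, or -0.71 with spike-in scaling). Its second probe, also above background on the untreated array alone, read 94.0 and 11.6 and was at least 3.61-fold lower. Cxcl10 differed by 0.67 (0.37 with normexp), the MHC class I peptide genes Psmb8, Psmb9, Tap1 and Tap2 by 0.27, 0.20, -0.059 and 0.056, and Nos2 by -0.060. Casp4, the sensor of cytosolic lipopolysaccharide that GBPs assist, differed by 0.62, Aim2 by -0.18 and B2m by 0.11, and Ido1 and Slfn4 were above background on neither array. The median of the list was 0.16.

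The labelled cell type was checked by marker genes. All 7 macrophage markers on the array were well above background on both arrays, of which Fcgr1 (-1.23), Mertk (-1.14) and Cd14 (-1.42) were at least 2-fold lower with IL-4, although Fcgr1 and Mertk came to -0.90 and -0.81 with spike-in scaling. Of the markers of lymphoid cells, among them the cells that make interferon-γ, Cd3d, Cd3g and Cd8a of T cells and Klrb1c, Klrk1 and Eomes of NK cells were above background on neither array. Those measured were lower with IL-4, with Lck at -0.51, Prf1 at -0.71 and Cd3e at -0.31, which turned to 0.016 with spike-in scaling, and Cd2 and Ncr1 were above background on the untreated array alone. In B cells Cd79b was measured (-0.36) and the other 4 markers were not. The neutrophil markers Elane, Mpo, Camp and Ltf were above background on both arrays, at -0.61 to 0.30, as were Prg2, Siglecf and Ccr3 of eosinophils at -0.018 to 0.37, while Epx was not. Of dendritic cell markers, Siglech and Zbtb46 were above background on their brighter probes (0.024 and -0.52) and Flt3 and Xcr1 were not. The second probe of Siglech was above background on neither array, and that of Zbtb46 on the untreated array alone. The part of these cells in the GTPase values was not tested, and in bulk RNA fewer cells of a type and less RNA per cell cannot be told apart.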

How the data were processed

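RNA of 1 untreated and 1 IL-4-treated BMDM culture was hybridised to 1 single-colour array each. The authors deposited scanner output (Feature Extraction 10.10.1.1, named in their processing notes) with the software's flags. Its processed intensity has the local background and spatial trends removed but carries no scaling between arrays. A second deposited file holds log2 values processed by the authors, whose differences for the 13 probes equalled those of the scanner intensity within 0.000566. Its columns had medians of 0.161 (untreated) and 0.016 (IL-4), and the reference on which its probes were centred is not given in the sources used here. The members and gene lists were chosen with earlier results of these data known.

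Control spots and outlier-flagged spots (133 and 159 flags) were dropped, repeated spots were averaged as log2 intensities, and each array was scaled by subtracting its 75th percentile (9.84 and 9.94). Each array held 43020 spots, of which 59.8% and 57.4% were well above background and 0 saturated. A gene was read from its brightest probe, and all probes of members are given. A probe above background on 1 array gives a bound, taken against the dimmest signal called above background on the other array unless the probe itself was brighter, and one above background on neither gives no fold. Genes were named through RefSeq accessions (GRCm38.p6, used for names, gene order and promoter windows), and 27229 probes were matched to 20656 symbols. A listed gene that no probe matched this way was counted as not on the array. In all counts of genes over the array, a target without a symbol was counted as a gene under its own identifier. The array design was annotated on mm9, so no gene coordinates are given. Named are the members, further GTPases that were at least 2-fold changed or near a member, and genes of the pathway and marker lists, apart from an item not reported here. With 1 array per condition no test was run, the number of arrays limits the precision, and at least 2-fold was counted as changed. The counting step was checked on simulated data. Alternatives were other scalings, quantile normalization, cyclic loess, normexp with an offset of 50, run on median pixel intensity, other probe rules, filters and a cutoff of 1.5-fold, and the authors' processed values. Quantile normalization, cyclic loess and normexp came from limma 3.58.1 (R 4.3.3), the rest from pandas 2.3.3 and numpy 2.4.6 in Python 3.11.15.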

Additional observations from a re-analysis of the deposited data

How the results depend on the processing

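The count of members at least 2-fold higher was 1 (Gbp5) except with normexp, where it was 0, and none was at least 2-fold lower in any setting with that cutoff. The median difference of the members (-0.0055) became 0.21 with median scaling, 0.094 without scaling, 0.080 with quantile normalization, 0.12 with cyclic loess and 0.32 with spike-in scaling, while the median of all genes above background on both arrays (-0.015) became 0.20, 0.085, -0.014, 0.0070 and 0.31. Of all genes changed at least 2-fold, 39.0% were higher, against 59.5% with median scaling, 60.1% with quantile normalization, 52.3% with cyclic loess, 69.4% with spike-in scaling and 25.4% with neither filter nor bound. All genes at least 2-fold higher and lower numbered 564 and 883, against 297 and 268 with normexp and 1389 and 4074 without filter or bound. No paired analysis was possible because there is a single array for either condition. Dim genes, Gbp5, Gbp7 and Gm4951 among them, are the least precise.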

Other observations

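Genes through which the GTPases find and open vacuoles, and of the defence that follows, stayed within 2-fold, as most genes did. Among all genes above background on both arrays, 2.11% were at least 2-fold higher and 1.57% lower. Of 20 genes of vacuole targeting and defence, 19 were on the array. All were well above background on both arrays, and none was at least 2-fold higher or lower. Their median log2 difference was -0.029, between -0.82 ± 0.29 for Nlrp3, the inflammasome sensor, and 0.61 for Atg16l1, which belongs to the conjugation machinery that directs GBPs and IRGs to vacuoles. Nlrp3 was dim, at 52.7 and 32.0, its second probe gave -0.30 ± 0.34, and normexp gave -0.50. In the conjugation machinery Atg5 and Atg12 differed by -0.068 and 0.0043, Atg3 by 0.33 and Atg7 by -0.47. The ubiquitin-like proteins Gabarap, Gabarapl1 and Gabarapl2 were at -0.023, 0.085 and -0.15. Cybb, the catalytic subunit of the phagocyte oxidase, read 2470 untreated and 1788 with IL-4 (-0.57 ± 0.055), and its partner Cyba was at 0.18 on its brighter probe and -0.066 on the other. Casp1 and Gsdmd, which act downstream of the inflammasome, were at 0.055 and -0.13.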
